A study of Mus musculus with 7 samples.

Results

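Emx2, Otx1, Six3, Six6, Rax, En2, Gbx2, Dlx1 and Dlx2 encode homeodomain transcription factors that mark regions of the forebrain, the midbrain and the border between midbrain and hindbrain. These 9 genes, taken by symbol, were read from the 25461 genes of an RNA sequencing table made from whole mouse embryos at E11.5, embryonic day 11.5, in 3 SLMAP3 KO and 4 WT embryos. SLMAP3 is the long isoform of the tail-anchored membrane protein made from Slmap, and the KO mice lack a floxed exon of that gene. The deletion was made through a CMV-cre line and then bred free of the cre on a B6C3F1 background, and it removes SLMAP3 but not the shorter SLMAP1 and SLMAP2. The WT embryos carried no deleted allele. No agent was given to either genotype, each library came from 1 embryo without pooling, and the tails had been removed for genotyping. All KO embryos carry the same deletion. The embryo labels carry a series number, 8, 9 or 10, whose meaning the labels do not give. The KO embryos were KOAC8-6, KOAC10-5 and KOAC10-8, and the WT embryos were KOAC8-1, KOAC10-7, KOAC9-1 and KOAC10-2. Litters are not named, so p-values measure the spread between these embryos.

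Regional identity in the early brain is set by overlapping domains of transcription factors, which signalling centres such as the isthmus position and refine. Six3, Six6 and Rax act in the anterior neural plate, the eye field and the ventral forebrain. Emx2 and Otx1 act in the dorsal forebrain, with Otx1 reaching into the midbrain, and Dlx1 and Dlx2 in the ventral forebrain where inhibitory neurons are born. En2 acts across the boundary between midbrain and hindbrain, and Gbx2 on its hindbrain side. Several are also used outside the brain: Emx2 in the urogenital system, and Dlx1 and Dlx2 in the pharyngeal arches. In RNA from a whole embryo, fewer cells of a type and less RNA per cell cannot be told apart.

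Dlx2 and Six3 were among the members that stood in nearly the same order across the embryos, and the sequence before the RefSeq start of each is shown for that reason. RefSeq promoter windows on GRCm38.p6 were matched for 6 of the 9 members, Dlx1, Dlx2, Emx2, Gbx2, Six3 and Six6. The 250 bases before the start are given in lower case, 5′ to 3′ on the strand of the gene. Each CCAAT, a proximal promoter element, is in capitals on either strand. The Dlx2 window is chr2:71546755-71547004 on the minus strand and overlaps no annotated exon, and the Six3 window is chr17:85620584-85620833 on the plus strand, where it lies inside the longer GENCODE span of the gene, in no exon of Six3, and its last 44 bases overlap an exon of the antisense noncoding gene Gm28528.
Dlx2: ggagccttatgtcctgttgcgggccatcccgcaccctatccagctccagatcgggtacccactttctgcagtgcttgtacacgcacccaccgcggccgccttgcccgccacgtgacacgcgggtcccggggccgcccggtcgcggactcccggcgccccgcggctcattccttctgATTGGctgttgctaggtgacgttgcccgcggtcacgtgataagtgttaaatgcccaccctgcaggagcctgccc
Six3: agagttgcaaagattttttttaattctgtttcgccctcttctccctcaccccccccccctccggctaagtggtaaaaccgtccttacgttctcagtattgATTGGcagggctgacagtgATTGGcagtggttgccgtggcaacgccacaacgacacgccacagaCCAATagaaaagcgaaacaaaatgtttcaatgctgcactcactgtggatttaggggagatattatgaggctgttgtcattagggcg
CCAAT occurred 1 time in the window of Dlx2, 3 times in that of Six3, 1 time in that of Emx2 and 2 times in that of Six6. It was present in 33.85% of the 32851 windows of this length, and it was added to the search after the sequences had been seen. TAATTA, a core recognised by many homeodomain proteins, was found on neither strand of the 6 windows and in 4.84% of all windows, and TATAAA was found in none of the 6 and in 12.4% of all. The G and C content was 48.8% in the Six3 window and 61.6% to 68.0% in the other windows of the members, against a median of 52.4% over all windows.

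The targeted gene was compared first. Slmap stood at 19.6, 16.0 and 16.6 FPKM, a read level scaled to transcript length and library size, in KOAC8-6, KOAC10-5 and KOAC10-8. It stood at 31.2, 23.9, 29.1 and 22.8 FPKM in the WT embryos KOAC8-1, KOAC10-7, KOAC9-1 and KOAC10-2. All KO embryos lay below all WT embryos, at a mean of 65.1% of the WT mean, and the exact permutation test gave two-sided p = 0.0286, the smallest value that 3 against 4 embryos allow. By limma the log2 fold change of Slmap was -0.59 ± 0.13 (SE, adjusted p = 0.278). The level is summed over all transcripts of the gene, including those of SLMAP1 and SLMAP2. The relative depth estimated from the smallest steps of the FPKM values ran from 0.81 to 1.21 of the mean embryo. KOAC10-5, KOAC10-7 and KOAC10-2 held little liver RNA, with summed liver markers of 25.1 to 42.4 FPKM against 406 to 747 FPKM in the other embryos, and Afp, the fetal serum protein of liver, at 1.30 to 5.18 FPKM. This split ran across both genotypes. Skeletal muscle markers summed to 97.0 to 166 FPKM in KO and 247 to 403 FPKM in WT, and mesenchyme markers to 654 to 871 FPKM in KO and 912 to 1037 FPKM in WT. Neural progenitor markers summed to 796 to 905 FPKM in KO and 714 to 829 FPKM in WT, and neuron markers to 881 to 997 FPKM in KO and 881 to 1066 FPKM in WT. The part of these differences in the values below was not tested.

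The regional factors were expressed over a wide range of levels. By mean FPKM over the 7 embryos, a scale per transcript length, Dlx1 was highest at 28.3 and was followed by Emx2 at 22.6, Dlx2 at 9.74, Otx1 at 8.03, Gbx2 at 7.63, En2 at 6.11, Six3 at 4.50, Rax at 1.47 and Six6 at 0.736. The ranges did not overlap between Emx2 and Dlx2, between Six3 and Rax, or between Rax and Six6. The other 5 neighbouring pairs overlapped in range, although Dlx1 exceeded Emx2, and En2 exceeded Six3, within each of the 7 embryos. Otx1 exceeded Gbx2 in 3 of 7 embryos, so their order was not set. The depth behind the lowest genes was smaller, with the authors' mean normalised count at 136.5 for Rax and 163.5 for Six6 against 3312 for Dlx1. Counting error alone would give about 8.56% for Rax and 7.82% for Six6 at those counts, and 1.74% for Dlx1.

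**Figure D1:**
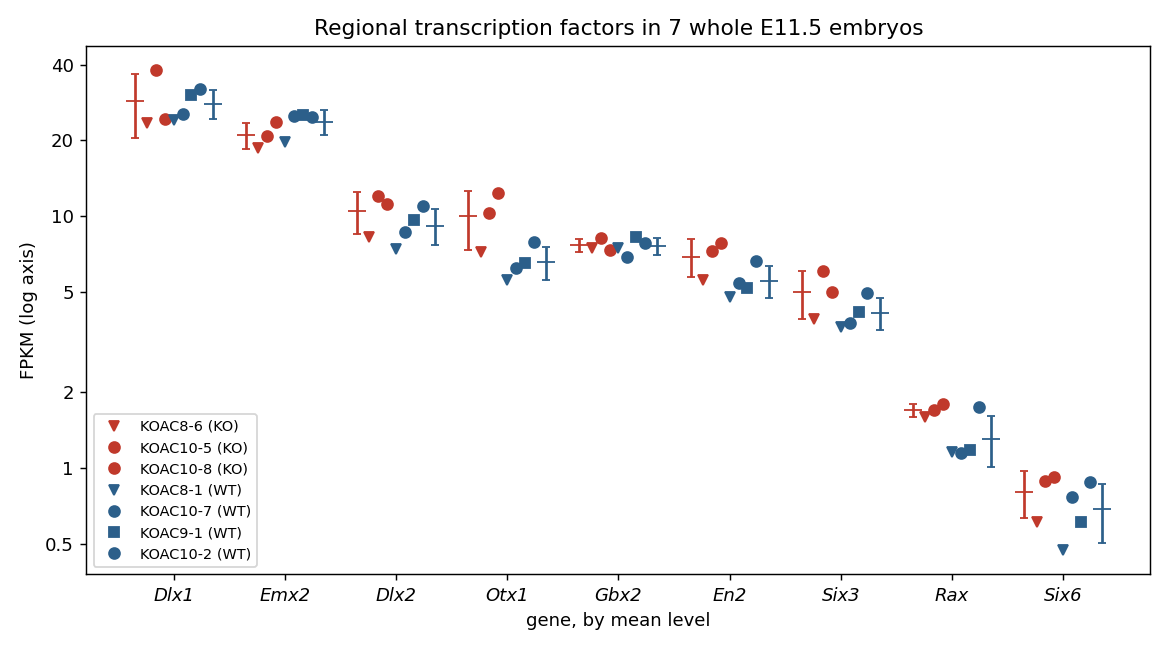
FPKM on a log axis for the 9 regional factors in each of the 7 embryos, ordered by mean level; red is KO, blue is WT, the marker shape is the series number in the label, and the crossbars give the mean with its SD (n = 3 KO and 4 WT). Levels run from 0.472 FPKM for Six6 to 38.1 FPKM for Dlx1, and the 2 genotypes overlap for each gene.

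No member passed the adjusted threshold between KO and WT. Of the 9 genes, 8 averaged 1 FPKM or more and were tested with limma, and 0 of the 8 had a Benjamini-Hochberg adjusted p under 0.05, a mark that 0.0373% of the 16095 tested genes passed. At an unadjusted p under 0.05, 1 member, Otx1, was higher in KO, where 5.27% of all tested genes were, and 0 were lower, where 6.19% were. Counting values alone, 0 of the 9 had all KO embryos above all WT embryos, against 5.61% of tested genes, and 0 had all below, against 5.98%. The fold changes of the tested members, on the log2(FPKM + 1) scale, were positive for 7 and negative for 1, with a median of 0.19 against 0.01 over all tested genes, of which 53.1% were positive. With the neural progenitor markers in the model the median of the members was -0.08. That covariate itself differed between genotypes, with means of 0.59 in KO and -0.44 in WT, so the fit cannot separate it from genotype. There, 2.75% of all tested genes were higher in KO at an unadjusted p under 0.05.

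Otx1, an orthodenticle homologue of the dorsal forebrain and midbrain, showed the widest difference. It lies on chromosome 11, from 21994764 to 22002897 on the minus strand of GRCm38. Its levels were 7.20, 10.3 and 12.4 FPKM in KOAC8-6, KOAC10-5 and KOAC10-8, and 5.60, 6.23, 6.54 and 7.87 FPKM in KOAC8-1, KOAC10-7, KOAC9-1 and KOAC10-2. KOAC10-5 and KOAC10-8 lay above every WT embryo, whereas KOAC8-6 lay below the WT embryo KOAC10-2. The KO mean was 9.99 ± 2.63 FPKM (SD, n = 3), against a WT mean of 6.56 ± 0.958 FPKM (SD, n = 4). Otx1 had a log2 fold change of 0.52 ± 0.18 (SE) with an adjusted p of 0.368 by limma, and its unadjusted p was 0.0217. The exact permutation test on FPKM gave two-sided p = 0.0571. The unadjusted call was lost without KOAC10-5, without KOAC10-8 or without KOAC8-1, where the fit gave unadjusted p = 0.0650, 0.0772 and 0.0530. With the neural progenitor markers as a covariate the log2 fold change was 0.06 and the unadjusted p 0.722 by limma. The covariate was itself higher in KO, so this fit cannot separate it from genotype.

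Emx2, a homologue of empty spiracles in the dorsal forebrain and the urogenital tract, was the tested member with a negative value. It lies on chromosome 19, from 59458372 to 59465357 on the plus strand. Its levels were 18.7, 20.7 and 23.7 FPKM in the KO embryos KOAC8-6, KOAC10-5 and KOAC10-8. They were 19.8, 24.9, 25.3 and 24.9 FPKM in the WT embryos KOAC8-1, KOAC10-7, KOAC9-1 and KOAC10-2. All KO embryos stood below 3 of the WT embryos, and KOAC8-1, the lowest WT embryo, fell among them. Emx2 had a log2 fold change of -0.16 ± 0.11 (SE, adjusted p = 0.594 by limma), and the exact test gave two-sided p = 0.200. Its 95% interval ran from -0.43 to 0.10. Without KOAC8-1 the genotypes of Emx2 no longer overlapped, and 8.97% of tested genes had all KO below all WT. Its unadjusted p was then under 0.05, where 5.57% of tested genes were lower in KO. With the neural progenitor covariate it was also under 0.05, where 2.4% of tested genes were lower, and the log2 fold change was -0.37. The antisense gene Emx2os, at a mean of 0.908 FPKM, was below the filter.

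Six3, Six6 and Rax, which act in the eye field and ventral forebrain, had higher KO means with overlapping values. Six3, on chromosome 17 from 85613608 to 85629302 on the plus strand, stood at 3.89, 6.07 and 5.01 FPKM in KOAC8-6, KOAC10-5 and KOAC10-8. In WT it stood at 3.64, 3.76, 4.17 and 4.95 FPKM in KOAC8-1, KOAC10-7, KOAC9-1 and KOAC10-2. Again KOAC10-5 and KOAC10-8 lay above every WT embryo and KOAC8-6 lay within the WT range. By limma the log2 fold change was 0.21 ± 0.15 (SE, adjusted p = 0.594), with a 95% interval from -0.13 to 0.56. Six3os1, on the other strand at a mean of 9.16 FPKM, shares 1.95% of the exon bases of Six3. Gm28528, also on the other strand at 0.353 FPKM, shares 3.1% of them. Reads over those bases cannot be assigned by strand.

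Six6, on chromosome 12 from 72939892 to 72944899 on the plus strand, was the lowest gene of the group. In the same order it stood at 0.609, 0.886 and 0.919 FPKM in KO and at 0.472, 0.770, 0.613 and 0.884 FPKM in WT. The values of KOAC10-5 and KOAC10-8 exceeded the highest WT value, KOAC10-2, by little. Its mean was under the filter, and in a fit without the filter its log2 fold change was 0.10 ± 0.11 (SE, adjusted p = 0.788 by limma). Six6 and 4930447C04Rik, a gene on the other strand at a mean of 5.03 FPKM, share 4.79% of the exon bases of Six6, and the library kit does not mark strand.

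Rax, the retina and anterior neural fold homeobox gene on chromosome 18, differed from Six3 and Six6 in which embryos were high. It stood at 1.59, 1.70 and 1.80 FPKM in KOAC8-6, KOAC10-5 and KOAC10-8, and at 1.15, 1.15, 1.18 and 1.75 FPKM in KOAC8-1, KOAC10-7, KOAC9-1 and KOAC10-2. All KO embryos lay above 3 of the WT embryos, and KOAC10-2 stood with the KO embryos. The log2 fold change was 0.23 ± 0.11 (SE, adjusted p = 0.481 by limma), and the exact test gave two-sided p = 0.114. KOAC10-2 was the only WT embryo of Rax to overlap. Without it the genotypes did not overlap, and 8.49% of tested genes had all KO above all WT. In that fit the unadjusted p of Rax was under 0.05, as were those of Otx1 and En2. Of all tested genes, 4.57% were higher in KO there. The antisense gene Raxos1 covers 27.4% of the exon bases of Rax and stood at a mean of 0.0622 FPKM.

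**Figure D2:**
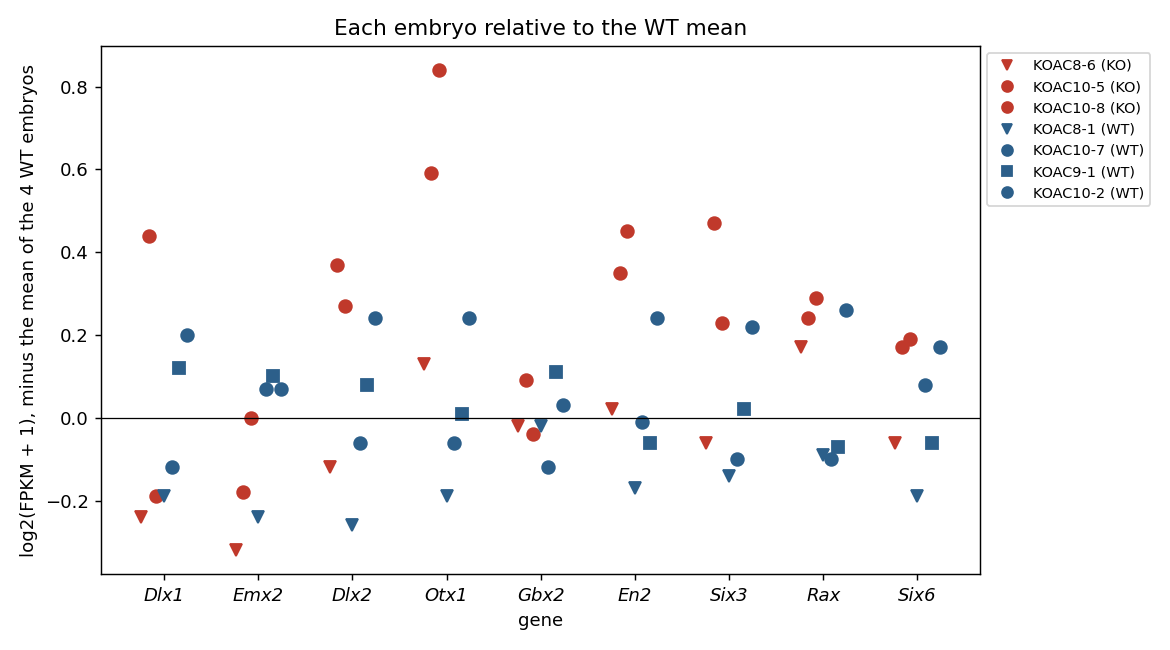
Level of each regional factor in each embryo on the log2(FPKM + 1) scale, minus the mean of the 4 WT embryos; colours and shapes as in the labels of the key. For Otx1, Six3, Six6, En2 and Dlx2 the 2 KO embryos of series 10 lie above every WT embryo, while KOAC8-6 lies within the WT range.

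En2 and Gbx2, both used around the isthmus, showed unlike values. En2, an engrailed homologue of the midbrain and anterior hindbrain on chromosome 5, from 28165694 to 28172166 on the plus strand, stood at 5.57, 7.29 and 7.85 FPKM in KOAC8-6, KOAC10-5 and KOAC10-8. Its WT levels were 4.78, 5.45, 5.21 and 6.65 FPKM in KOAC8-1, KOAC10-7, KOAC9-1 and KOAC10-2. The KO embryo KOAC8-6 exceeded 3 WT embryos and fell below KOAC10-2. En2 had a log2 fold change of 0.27 ± 0.14 (SE, adjusted p = 0.486 by limma), with a 95% interval from -0.05 to 0.59.

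Gbx2, which is needed on the hindbrain side of the boundary, lies on chromosome 1 from 89927956 to 89931179 on the minus strand. It stood at 7.45, 8.17 and 7.34 FPKM in KOAC8-6, KOAC10-5 and KOAC10-8, and at 7.49, 6.89, 8.25 and 7.80 FPKM in KOAC8-1, KOAC10-7, KOAC9-1 and KOAC10-2. All KO values lay inside the WT range, which itself spanned only 1.20-fold. Gbx2 had a log2 fold change of 0.01 ± 0.08 (SE, adjusted p = 0.973 by limma), and its 95% interval, the narrowest of the tested members, ran from -0.17 to 0.19. The antisense gene D130058E05Rik covers 43.5% of the exon bases of Gbx2 and stood at a mean of 1.42 FPKM, so reads of the pair cannot be told apart over those bases.

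Dlx1 and Dlx2, the linked distal-less genes of the ventral forebrain and the pharyngeal arches, also overlapped between genotypes. They lie on chromosome 2, Dlx1 from 71528113 to 71533981 on the plus strand and Dlx2 from 71543408 to 71546754 on the minus strand, with 9426 bases between them. Dlx1 stood at 23.5, 38.1 and 24.3 FPKM in KOAC8-6, KOAC10-5 and KOAC10-8, and at 24.2, 25.5, 30.4 and 32.0 FPKM in KOAC8-1, KOAC10-7, KOAC9-1 and KOAC10-2. Only KOAC10-5 was above the WT range, and KOAC8-6 was just below it. The log2 fold change of Dlx1 was 0.00 ± 0.18 (SE, adjusted p = 0.993 by limma), with a 95% interval from -0.42 to 0.43, and it was -0.21 without KOAC10-5.

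Dlx2 stood at 8.27, 12.1 and 11.2 FPKM in KOAC8-6, KOAC10-5 and KOAC10-8, and at 7.43, 8.67, 9.64 and 10.9 FPKM in KOAC8-1, KOAC10-7, KOAC9-1 and KOAC10-2. KOAC10-5 and KOAC10-8 exceeded all WT embryos, KOAC10-8 by a small margin over KOAC10-2. The log2 fold change was 0.17 ± 0.16 (SE, adjusted p = 0.682 by limma), with a 95% interval from -0.19 to 0.54. The antisense gene Dlx1as, which overlaps 6.21% of the exon bases of Dlx1, stood at a mean of 14.4 FPKM with a log2 fold change of 0.04 ± 0.17 (SE).

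**Figure D3:**
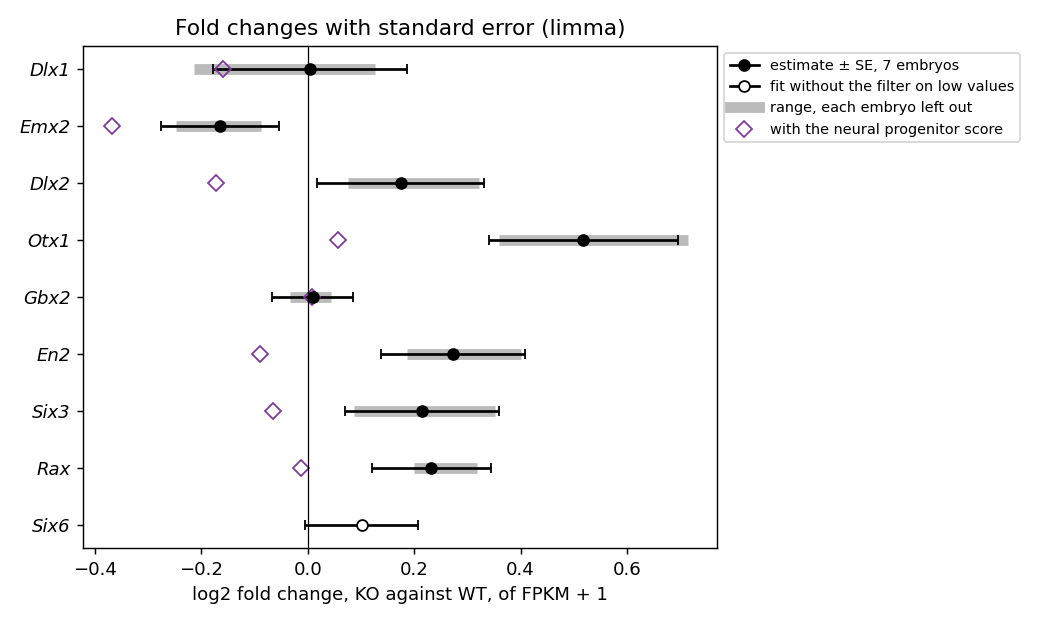
Log2 fold change of KO against WT for each regional factor on the log2(FPKM + 1) scale; black points and bars are the limma estimate and its SE, grey bars the range when each embryo was left out in turn, and violet diamonds the estimate with the neural progenitor markers as a covariate. Otx1 has the highest estimate at 0.52, and the diamonds of Six3, Rax, En2, Dlx1, Dlx2 and Emx2 lie below 0.

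The embryos differed from each other along the same lines for most members. KOAC8-6 was the lowest KO embryo for 8 of the 9 genes, the exception being Gbx2, and KOAC8-1 was the lowest WT embryo for 7 of the 9. KOAC10-2 was the highest WT embryo for 7 of the 9 and stood above the WT mean for all 9. In Otx1, Six3, Six6, En2 and Dlx2, 5 genes, both KO embryos of series 10 lay above every WT embryo. Without KOAC8-6, these 5 genes had all KO values above all WT values, as did 9.5% of the 16095 tested genes. Without KOAC10-2, 3 genes did (Otx1, Rax and En2), against 8.49% of tested genes. Without KOAC8-1, 1 gene (Emx2) had all KO values below all WT values, against 8.97%. No such gene remained under the removal of any other embryo.

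Within series 8 and within series 10, the same 5 genes had each KO embryo above each WT embryo, as did 13.3% of tested genes. Series 8 held 1 embryo of each genotype and series 10 held 2 of each, while series 9 held 1 WT embryo only. The difference of log2(FPKM + 1), KO minus WT, was 0.31 in series 8 and 0.62 in series 10 for Otx1. It was 0.18 and 0.29 for En2, 0.08 and 0.29 for Six3, 0.14 and 0.23 for Dlx2, and 0.13 and 0.06 for Six6. For Rax it was 0.27 and 0.18, with KOAC10-2 above KOAC10-5 in series 10. Emx2 was lower in KO in both, by -0.07 and -0.16, and Gbx2 and Dlx1 had small differences of opposite sign, -0.01 and 0.07 for Gbx2 and -0.04 and 0.09 for Dlx1. With the series number as a block, 2 members, Otx1 and En2, were higher in KO at an unadjusted p under 0.05, as were 4.04% of tested genes. Liver RNA also differed within series 10, where KOAC10-8 alone had a summed liver level of 486 FPKM.

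Ratios to a paralog or to another gene of the same brain region gave a comparison within the embryo. The log2 ratio of Gbx2 to Otx2, the orthodenticle gene that meets Gbx2 at the boundary of midbrain and hindbrain, was -1.54, -1.85 and -1.98 in KOAC8-6, KOAC10-5 and KOAC10-8. It was -1.39, -1.44, -1.12 and -1.39 in KOAC8-1, KOAC10-7, KOAC9-1 and KOAC10-2. All KO embryos lay below all WT embryos, and among the 7 ratios between members and related genes it was the only one without overlap. Its means were -1.79 ± 0.22 (SD, n = 3) and -1.34 ± 0.14 (SD, n = 4). Otx2 stood at 23.7 to 32.1 FPKM in KO and 19.2 to 22.1 FPKM in WT, and Gbx2 within 6.89 to 8.25 FPKM in all embryos. Otx2 alone was thus without overlap, where 5.61% of tested genes had all KO above all WT. The gap in the ratio is therefore not separate from that of Otx2. How many other pairs of genes would separate was not counted.

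En2 and its paralog En1 had opposite signs. The log2 ratio of En2 to En1 was 0.54, 0.95 and 0.78 in KOAC8-6, KOAC10-5 and KOAC10-8, and 0.19, 0.51, 0.12 and 0.62 in KOAC8-1, KOAC10-7, KOAC9-1 and KOAC10-2. KOAC10-2 alone overlapped the KO embryos. En1 itself had a log2 fold change of -0.12 ± 0.10 (SE, adjusted p = 0.659 by limma). The log2 ratio of Otx1 to Otx2 was -1.48 ± 0.16 (SD, n = 3) in KO and -1.53 ± 0.17 (SD, n = 4) in WT, a mean difference of 0.05 with overlapping values. The ratios of Emx2 to Emx1, Dlx2 to Dlx1, Six6 to Six3 and Rax to Six3 overlapped, with mean differences of -0.02, 0.17, -0.11 and 0.02.

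Set against neural progenitor RNA, whose mean level was itself higher in KO, Emx2 lay lower in KO. The log2 ratio of Emx2 to the mean of 8 neural progenitor markers was -1.59, -1.57 and -1.55 in KOAC8-6, KOAC10-5 and KOAC10-8. It was -1.28, -1.04, -0.87 and -1.27 in KOAC8-1, KOAC10-7, KOAC9-1 and KOAC10-2. The KO embryos stood close together and lay below all WT embryos. Six6 also lay below without overlap, by a margin under the second decimal, with means of -5.18 and -4.99. The other 7 members overlapped on this scale, Otx1 with means of -2.60 in KO and -2.83 in WT. The progenitor markers themselves had a mean log2 level of 6.02 ± 0.14 (SD, n = 3) in KO and 5.74 ± 0.16 (SD, n = 4) in WT. That mean differed by 0.29 and Emx2 alone by -0.16, so the ratio, with a difference of -0.45, holds both. Gbx2 and Dlx1 also fell on this scale, by -0.28 each, with overlapping values. How many of all tested genes would separate on it was not counted.

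**Figure D4:**
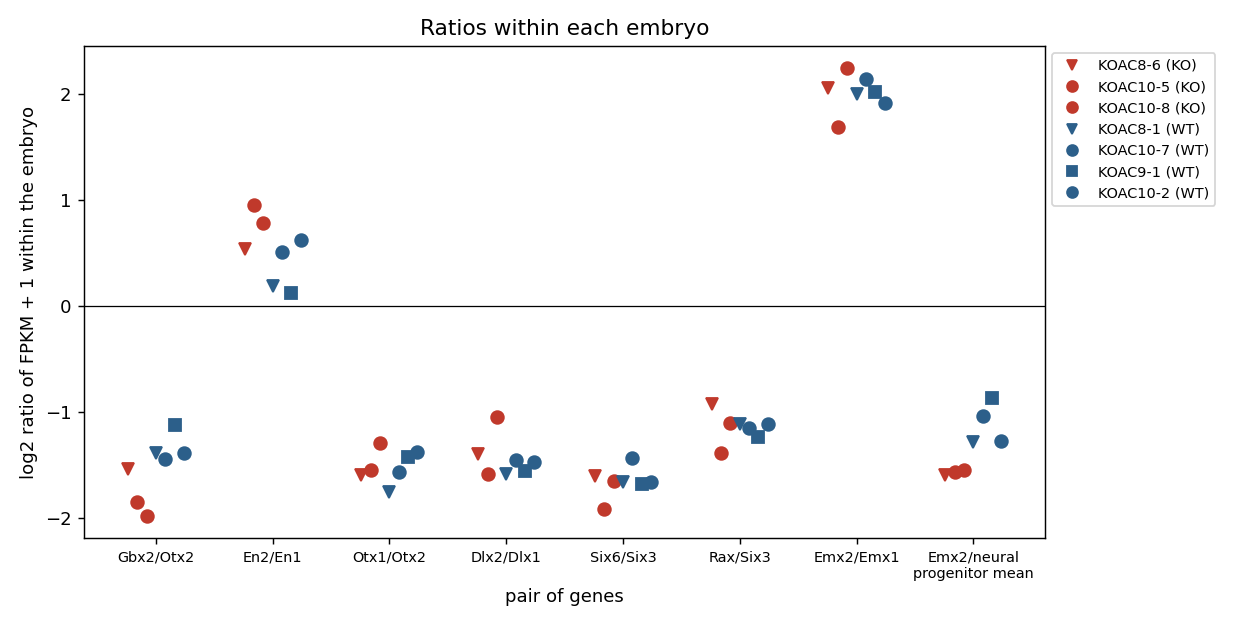
Log2 ratios of FPKM + 1 within each embryo for pairs of related genes and for Emx2 against the mean of the neural progenitor markers; red is KO, blue is WT, and the shape is the series number. KO and WT are apart for Gbx2/Otx2, between -1.54 and -1.44, and for Emx2 against progenitors, between -1.55 and -1.28, and overlap for the other pairs.

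Other genes of the same families and their noncoding neighbours were read from the same fit. Of 12 paralogs of the members, 11 were tested and 0 passed the adjusted threshold. At an unadjusted p under 0.05, 2 were higher and 0 lower in KO, against 5.27% and 6.19% of all tested genes. Otx2 had a log2 fold change of 0.46 ± 0.11 (SE, adjusted p = 0.286 by limma), and Dlx3, a distal-less gene of placodes and arches, 0.25 ± 0.10 (SE, adjusted p = 0.403). Emx1 had -0.14, Dlx5 0.12, Dlx6 0.00, Six2 0.01, Six4 0.18, Six5 0.07 and Gbx1 0.03, and the median of the 11 was 0.03. Dlx4, at a mean of 0.410 FPKM, was not tested. Of 7 listed noncoding genes, antisense to or near brain transcription factor genes, 6 were found by symbol and 4 were tested. Six3os1, on the strand opposite Six3 and overlapping it, had 0.35 ± 0.14 (SE). Pantr1, beside the Pou3f3 gene, had 0.34 ± 0.12 (SE). Both had an unadjusted p under 0.05 by limma and were higher in KO.

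Further forebrain and midbrain factors were read from lists. Of 27 other forebrain factors, 25 were tested, with a median log2 fold change of 0.12. At an unadjusted p under 0.05, 5 were higher and 0 lower in KO, against 5.27% and 6.19% of all tested genes. Pax6, the paired-box gene of forebrain and eye, stood at 25.9 to 34.3 FPKM in KO and 19.5 to 23.8 FPKM in WT, a log2 fold change of 0.50 ± 0.11 (SE, adjusted p = 0.275 by limma). The others were Otx2, Sp8 at 0.41, Fezf1 at 0.30 and Vax1 at 0.31, of which Vax1 was named after its value had been seen. Of 19 other midbrain and isthmus factors, 2 were higher and 1 lower at an unadjusted p under 0.05, with a median of 0.12. Sall4 had 0.49 and the floor plate factor Foxa2 0.30, and Pitx3, which acts in midbrain dopamine neurons and also in lens and muscle, had -0.83 ± 0.16 (SE, adjusted p = 0.274 by limma). Pitx3 stood at 1.40 to 2.38 FPKM in KO and 3.37 to 4.79 FPKM in WT, and the muscle markers Myog, Acta1 and Mylpf also lay below all WT embryos in each KO embryo, at -1.01, -1.36 and -1.39.

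Ligands and feedback genes of the brain signalling centres that position these domains followed. Of 11 tested genes, 6 were higher and 0 lower in KO at an unadjusted p under 0.05, against 5.27% and 6.19% of all tested genes. The median log2 fold change was 0.33. Fgf15, an FGF ligand of the midbrain and diencephalon, stood at 19.1, 20.4 and 34.1 FPKM in KOAC8-6, KOAC10-5 and KOAC10-8. In WT it stood at 11.7 to 13.7 FPKM, below each KO embryo, and the log2 fold change was 0.86 ± 0.19 (SE, adjusted p = 0.279 by limma). Fgf8, the ligand of the isthmus and the anterior neural ridge, had 0.72 ± 0.19 (SE, adjusted p = 0.308), with 4.64 to 7.76 FPKM in KO and 2.21 to 3.92 FPKM in WT. The roof plate and isthmus ligands Wnt1 and Wnt3a had 0.39 and 0.29, also without overlap. All KO values lay above all WT values in 4 of the 11, and in 5.61% of all tested genes. Fold changes were positive for 8 of the 11 and negative for 3. The negative ones were the feedback genes Spry1 at -0.02 and Spry2 at -0.16, and the ligand Bmp4 at -0.04. None of the 11 passed the adjusted threshold. For Fgf15, Fgf8, Wnt1 and Wnt3a KOAC10-8 was the highest embryo, as it was for Otx1, Six6, Rax and En2 among the members. Among the other ligands, Fgf18 was highest in KOAC8-6 and Bmp4 in KOAC10-2.

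Lists from neighbouring regions and other cell types were counted in the same way. Of 10 tested eye field and retina factors, 0 had an unadjusted p under 0.05 (median 0.02), and likewise 0 of 10 hindbrain factors (median 0.17) and 0 of 10 neuron markers (median -0.04). Of 13 pharyngeal arch factors, 1, Dlx3, was higher (median 0.11). Of 8 posterior Hox genes, 1, Hoxd10 at 0.41, was higher and 2, Hoxc8 and Hoxc9 at -0.81 each, were lower (median -0.32). Hoxc9 stood at 3.76 FPKM in KOAC8-6 and at 1.04 and 0.837 FPKM in KOAC10-5 and KOAC10-8, against 3.44 to 3.77 FPKM in WT. In KOAC10-5 and KOAC10-8, Hoxb8, Hoxc8, Hoxa9 and Hoxc10 also lay below the WT range. Hoxd9 did so in KOAC10-5 only, and Hoxa10 and Hoxd10 in neither. Hoxc10 was nearly absent from KOAC10-5 and KOAC10-8, at 0.0414 and 0.0647 FPKM. It stood at 4.23 FPKM in KOAC8-6 and at 1.34 to 9.21 FPKM in WT. The same KO embryos, KOAC10-5 and KOAC10-8, lay above every WT embryo for Otx1, Six3, Six6, En2 and Dlx2. A link to the levels of the brain factors was not tested. Of 8 neural progenitor markers, 6 were higher, among them Sox2 at 0.48 and Hes5 at 0.50 (median 0.35). Of 9 tested skeletal muscle markers, 8 were lower (median -0.97), and of 8 mesenchyme markers, 5 were lower (median -0.36). Of 7 heart markers, 3 were higher (median 0.20), and of 5 primitive erythroid markers, 1, Hbb-y at -0.57, was lower (median -0.30). Of 6 liver markers, 1, Ttr at -1.40, was lower (median 0.29), and Ttr is also made in the choroid plexus. No gene of any of these lists passed the adjusted threshold. Over all tested genes 11.5% had an unadjusted p under 0.05, 5.27% higher and 6.19% lower in KO.

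**Figure D5:**
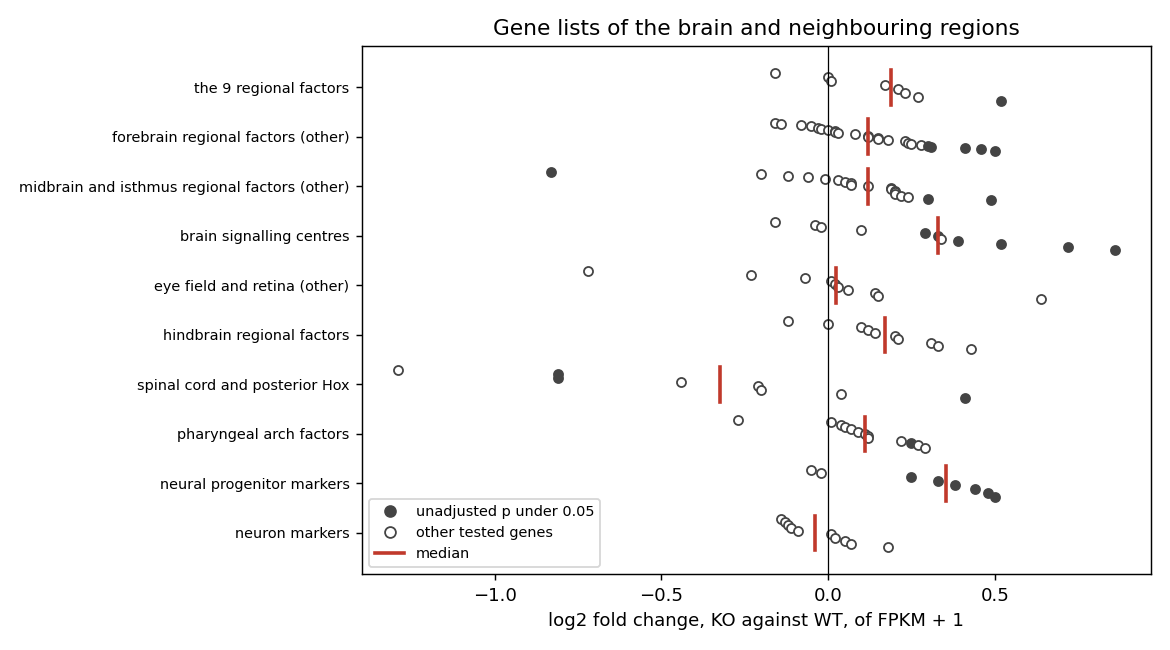
Log2 fold change of KO against WT on the log2(FPKM + 1) scale for each tested gene of the regional lists; filled points have an unadjusted p under 0.05 by limma and red bars are medians. The medians are 0.19 for the regional factors, 0.33 for the signalling centres, 0.35 for neural progenitor markers, -0.04 for neuron markers and -0.32 for posterior Hox genes.

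The genes whose levels most resembled the members across embryos were read as a description. Over the 7 embryos and 11471 other genes that averaged 5 FPKM or more, the mean standardised level of the 9 members had the highest Pearson r with Pomk (0.987), Gm27032 (0.966), Id4 (0.962) and Pax2 (0.956), with Spearman rho from 0.89 to 0.96. These points share libraries and depth. Without KOAC10-5 and KOAC8-1, the embryos farthest from the median, r ran from 0.91 to 0.98 over 5 embryos. These genes had been picked for their r over all 7, so this range is no separate support. Pomk, a kinase that modifies the sugar chain of dystroglycan, varied only between 5.50 and 6.09 FPKM. Id4, an inhibitor of bHLH factors in neural progenitors, stood at 22.0, 28.1 and 26.5 FPKM in KOAC8-6, KOAC10-5 and KOAC10-8, and at 20.5, 24.2, 24.1 and 27.0 FPKM in KOAC8-1, KOAC10-7, KOAC9-1 and KOAC10-2. Its values too were lowest in KOAC8-1 and KOAC8-6, and KOAC10-5 was highest, an order that follows from how Id4 was picked.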

How the data were processed

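RNA was taken from whole E11.5 embryos with the RNeasy mini kit, and libraries were made with TruSeq RNA v2, which does not mark strand. Per the submitters' processing notes, Salmon and DESeq2 were among the tools and GRCm38 was the genome build; versions are not given in the sources used here. The deposited table holds FPKM values made by the authors, 1 per gene and embryo, and a mean normalised count per gene, a signal over all embryos scaled by the authors. It also holds the authors' own fold changes, standard errors and p-values, which were not used. Raw counts were not used here, so depth was estimated from the steps of low FPKM values.

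The 16095 of 25461 genes that averaged 1 FPKM or more across the 7 embryos were tested on log2(FPKM + 1) with limma 3.58.1 (lmFit, eBayes with a trend) in R 4.3.3, without covariates, and p-values were adjusted by Benjamini-Hochberg over all of them. A fold change on this scale understates that of low genes. The script was tested on simulated data. Single values used exact two-sided permutation tests over the 35 splits. The neural progenitor covariate was the mean standardised level of the 8 markers. Gene positions and exon overlaps were taken from GENCODE M21 on GRCm38, and promoter windows from RefSeq. The members and lists were chosen with earlier results of these data known. The genes named were the 9 members, Slmap, paralogs and noncoding neighbours, up to 4 genes of smallest p per list, genes of the marker lists, and the 5 most alike across embryos; some genes under this rule are not reported here. Alternatives changed the pseudocount, the filter, the scaling, the covariates, the weights or the moderation, or left out each embryo.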

Additional observations from a re-analysis of the deposited data

Results flagged for a closer look

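The 4 WT embryos were examined for 28 genes, the members, Slmap, their paralogs and noncoding neighbours. For 2 genes, a single embryo stood apart from the other 3, with a ratio of gap to range above Dixon's 95% critical value, where chance would give about 1.4 (1 in 20). Emx2 was low in KOAC8-1, at 19.8 FPKM against 24.9 to 25.3 FPKM in the other WT embryos (ratio 0.925). Rax was high in KOAC10-2, at 1.75 FPKM against 1.15 to 1.18 FPKM in the others (ratio 0.943). The KO group of 3 was not examined this way.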

How the results depend on the processing

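Adjusted calls among the members stayed at 0 under all 11 model alternatives and all 7 fits that left out an embryo. The number with an unadjusted p under 0.05 and higher in KO was 1 as reported. It was 2 with the series number as a block and with log2 Afp as a covariate, where 4.04% and 5.05% of all tested genes were higher. With the neural progenitor covariate and with embryo quality weights it was 0, where 2.75% and 6.35% were higher. That covariate itself had means of 0.59 in KO and -0.44 in WT. When an embryo was left out the number was 0 to 3, where 3.31% to 7.81% of all tested genes were higher. It was 3 without KOAC8-6 and without KOAC10-2, and 0 without KOAC10-5, KOAC10-8 or KOAC8-1. The number lower in KO, 0 as reported, was 1 with the neural progenitor covariate, where 2.4% of all tested genes were lower. It was 0 to 1 with an embryo left out, the 1 being Emx2 without KOAC8-1, where 5.57% were lower. Members without overlap ran from 0 to 5 and the 7 ratios without overlap from 1 to 3 with an embryo left out; the latter were 2 without KOAC8-6 or KOAC10-2 and 3 without KOAC10-5. The median log2 fold change was -0.0777 with the neural progenitor covariate, and that covariate turned the sign of Six3 (-0.0658), Rax (-0.0126), En2 (-0.0895), Dlx1 (-0.159) and Dlx2 (-0.173). Gbx2 and Dlx1, near 0 as reported, turned to -0.0013 and -0.0069 with FPKM rescaled to a common sum. Dlx1 was -0.0669 with quality weights, and with an embryo left out Gbx2 ran from -0.0335 to 0.0443 and Dlx1 from -0.213 to 0.126. The cause of these shifts was not tested. Otx1 kept a positive sign throughout, from 0.06 to 0.71, with adjusted p from 0.335 to 0.983. Over all genes 6 were called, against 10 with log2 Afp, 3 with the neural progenitor covariate and 12 without KOAC8-1. Other forebrain factors higher in KO numbered 5, against 0 to 9 over the alternatives, and other midbrain factors 2, against 0 to 3. The order of levels kept 5 overlapping neighbours each time. Rax and Six6 had the lowest mean normalised counts, and how depth limits their differences was not tested.
The labels give the embryos no replicate numbers that pair KO with WT. The series number is shared by both genotypes in series 8 and 10, and the fit with it as a block is the one given above.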
